A study of Mus musculus with 18 samples.

Results

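The genes described here make prostaglandins and leukotrienes from arachidonic acid or receive prostaglandin E2. They are 10 of the 55385 genes in the count table: the cyclooxygenases *Ptgs1* and *Ptgs2*, the prostaglandin E synthase *Ptges*, the lipoxygenases *Alox5* and *Alox15*, the leukotriene genes *Alox5ap*, *Ltc4s* and *Lta4h*, and the E prostanoid receptors *Ptger2* and *Ptger4*. They were chosen by their roles, with no measured value in the rule, but with earlier results of these data known. They were found through the Ensembl identifiers of their symbols on GRCm38. RNA-seq was done on bone marrow-derived macrophages (BMDM) of female C57BL/6J mice aged 12 weeks, grown to day 7 in medium with L-929 culture supernatant, which supplies the macrophage growth factor M-CSF. Cells received vehicle (Veh, 0.1% DMSO), 250 µM HC3 (hemicholinium-3, which blocks choline uptake) or 5 µM RSM (RSM-932a, a choline kinase inhibitor) for 24 h. For the next 24 h they stayed naïve (M[0]) or were polarized with IL-4 at 20 ng/mL (written M[IL-4]), which gave 6 groups of 3 libraries and 18 libraries in all. The labels do not give the DMSO content of the HC3 and RSM groups. No group carried a mutation or transgene. The labels count 3 mice but do not tie a replicate number to a mouse, so p-values measure the spread between these libraries, part of which may be technical.

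Eicosanoids are short-lived lipid signals. Phospholipases free arachidonic acid from membrane phospholipids, cyclooxygenases turn it into prostaglandin H2, and terminal synthases convert that into individual prostanoids such as prostaglandin E2. In the other branch, 5-lipoxygenase and its activating protein make leukotriene A4, which is passed on to leukotriene B4 or leukotriene C4. Macrophages are major producers of both families. Ptgs1 is usually present without a stimulus and Ptgs2 is known as the inducible enzyme of inflammation, while the receptors EP2 (*Ptger2*) and EP4 (*Ptger4*) both raise cyclic AMP in the cell that receives prostaglandin E2.

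The results turn on a pair of enzymes and a pair of receptors whose transcripts moved in opposite directions, so the start regions of these 4 genes are shown. Each line runs 5′ to 3′ along the gene from 250 bases before to 30 bases after the start of the RefSeq transcript, on GRCm38.p6. *Ptgs1* lies on chr2:36230176-36230455 (plus strand), *Ptgs2* on chr1:150099781-150100060 (plus strand), *Ptger2* on chr14:44987861-44988140 (plus strand) and *Ptger4* on chr15:5244158-5244437 (minus strand). Capitals mark matches to the motifs searched.
Ptgs1: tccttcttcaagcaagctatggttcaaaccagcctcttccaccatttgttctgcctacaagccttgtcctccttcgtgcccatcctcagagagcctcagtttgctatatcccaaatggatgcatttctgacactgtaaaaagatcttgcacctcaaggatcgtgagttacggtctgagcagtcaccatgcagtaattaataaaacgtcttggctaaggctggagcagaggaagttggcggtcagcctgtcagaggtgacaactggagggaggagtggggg
Ptgs2: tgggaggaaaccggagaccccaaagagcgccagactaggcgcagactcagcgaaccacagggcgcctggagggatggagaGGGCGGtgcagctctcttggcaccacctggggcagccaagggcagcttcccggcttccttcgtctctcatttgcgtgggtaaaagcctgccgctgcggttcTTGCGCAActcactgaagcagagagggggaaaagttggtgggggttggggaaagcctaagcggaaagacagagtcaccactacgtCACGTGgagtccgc
Ptger2: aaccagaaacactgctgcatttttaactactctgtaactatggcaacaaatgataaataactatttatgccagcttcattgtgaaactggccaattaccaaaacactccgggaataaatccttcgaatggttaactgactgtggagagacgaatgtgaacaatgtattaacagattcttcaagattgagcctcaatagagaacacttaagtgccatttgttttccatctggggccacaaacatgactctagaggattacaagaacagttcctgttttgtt
Ptger4: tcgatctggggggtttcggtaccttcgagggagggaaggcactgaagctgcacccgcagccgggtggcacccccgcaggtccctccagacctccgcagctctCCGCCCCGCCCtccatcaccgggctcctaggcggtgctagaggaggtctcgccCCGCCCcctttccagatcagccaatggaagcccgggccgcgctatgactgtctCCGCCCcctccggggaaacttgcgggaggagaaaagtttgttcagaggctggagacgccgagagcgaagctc

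The motifs were searched on both strands: the cyclic AMP response element TGACGTCA, the composite C/EBP-ATF element TGATGCAA, the C/EBP site TTNCGCAA, the E-box CACGTG, the GC-box GGGCGG, the STAT6 site TTCNNNNGAA and TATAAA. The *Ptgs2* window held a C/EBP match that began 69 bases before the start and reads the same on both strands, an E-box 17 bases into the transcript and a GC-box 170 bases before the start. Of 32851 RefSeq windows of the same length, 0.758% held the C/EBP letters, 6.79% the E-box and 34.7% the GC-box. The *Ptger4* window held 4 GC-boxes on the opposite strand, of which the first and the second overlap. The *Ptgs1* and *Ptger2* windows held no match. GC content was 61.4% for *Ptgs2* and 66.8% for *Ptger4*, against 49.6% for *Ptgs1* and 37.9% for *Ptger2*, with a median of 52.5% over all windows. These matches describe letters only. A window was found for 8 of the 10 genes.

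Libraries held 17457796 to 19522255 counted read pairs, at which 3 counts are worth 0.154 to 0.172 CPM (counts scaled to a common library total). Levels below are CPM scaled by the trimmed mean of M-values (TMM), and differences are log2 fold changes from edgeR with a Benjamini-Hochberg false discovery rate (FDR) over all 14979 genes tested. Genes were called changed where the FDR was under 0.05 and the log2 fold change was 1 or more in size. The polarization labels were checked on *Retnla*, the gene of the IL-4 effector RELMα, which had 0 CPM in every M[0] library and 797 to 1519 CPM in M[IL-4] with Veh. All 10 macrophage markers were at 1 CPM or more in every group. Their summed level was 21280 to 22180 CPM in M[0] with Veh and 9084 to 10070 CPM with HC3. Of the 10, 7 were called lower with HC3 in M[0], 4 with RSM in M[0], 2 with HC3 and 1 with RSM in M[IL-4]. Of all genes tested, 6.11%, 6.51%, 5.53% and 6.00% were called lower in the same comparisons. In bulk RNA, fewer cells of a type and less RNA per cell cannot be told apart.

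Stromal collagen transcripts were also present. The summed level of 7 stromal markers was 527 to 888 CPM in M[0] with Veh, 1233 to 1699 with HC3 and 1036 to 1486 with RSM. In M[IL-4] the sums were 285 to 665 CPM with Veh, 563 to 1061 with HC3 and 540 to 1077 with RSM. *Col3a1* was called in all 4 inhibitor comparisons (log2 fold changes 1.04 to 1.45) and *Col1a1* in both of those in M[0] (1.17 and 1.13), while *Dcn* was called lower with RSM in both states (-1.51 and -1.55) and *Pdgfra* was called in none. *Lum* was at or near 0 in every library. Stromal cells can express eicosanoid genes, so these sums are given beside the results they move with, and their part in them was not tested.

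The 2 cyclooxygenase genes changed in opposite directions with both inhibitors. *Ptgs2* rose 6.53-fold with HC3 and 8.63-fold with RSM in M[0], and 5.61-fold and 7.06-fold in M[IL-4]. *Ptgs1* fell with HC3 to 0.303 of its Veh level in naïve and to 0.362 in polarized cells, fell with RSM to 0.423 in polarized cells, and stood at 0.506 of the Veh level with RSM in M[0].

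In M[0], *Ptgs2* was at 6.19, 5.99 and 7.31 CPM in the 3 Veh libraries, at 39.0, 51.8 and 36.7 with HC3, and at 57.7, 61.5 and 49.5 with RSM. In M[IL-4] it was at 3.12, 4.30 and 4.26 CPM with Veh, at 16.3, 23.2 and 26.0 with HC3, and at 25.7, 27.8 and 28.9 with RSM. Every inhibitor library stood above every Veh library of both states, with a lowest inhibitor value of 16.3 CPM and a highest Veh value of 7.31. From high to low the groups ran RSM and HC3 in M[0], RSM and HC3 in M[IL-4], then Veh in M[0] and Veh in M[IL-4]. Within each polarization the RSM and HC3 libraries overlapped, and no other neighbours in that order did. In naïve cells HC3 gave a log2 fold change of 2.71 ± 0.171 (SE) and RSM one of 3.11 ± 0.171 (FDR 2.88e-10 and 5.02e-11). In polarized cells the values were 2.49 ± 0.186 and 2.82 ± 0.184 (FDR 4.41e-09 and 6.73e-10). The 4 comparisons draw on shared Veh libraries within each polarization.

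The stromal sum also stood higher with the inhibitors than with Veh in M[0]. Replicate 2 had the lowest stromal sum in all 6 groups. Its *Ptgs2* level was the highest of the 3 replicates under both inhibitors in naïve cells and under Veh in polarized cells. It was the lowest under Veh in naïve cells, and the middle value under both inhibitors in polarized cells. Whether stromal cells contributed to these *Ptgs2* levels was not tested. In M[IL-4] the sum was 665, 285 and 649 CPM in Veh replicates 1, 2 and 3, 973, 563 and 1061 CPM with HC3, and 1077, 540 and 937 CPM with RSM, so that it stood higher with each inhibitor at every replicate number.

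*Ptgs1* gave a different order of groups. Its CPM was 63.8, 58.6 and 63.7 in M[0] with Veh, 18.7, 18.5 and 19.2 with HC3, and 35.5, 27.2 and 31.5 with RSM. In M[IL-4] it was 197, 251 and 228 with Veh, 75.8, 81.9 and 87.1 with HC3, and 91.2, 95.5 and 99.1 with RSM. The 6 groups did not overlap: Veh M[IL-4] stood highest, followed by RSM M[IL-4], HC3 M[IL-4], Veh M[0], RSM M[0] and HC3 M[0]. With HC3 the log2 fold change was -1.72 ± 0.0977 (SE) in naïve cells and -1.47 ± 0.0898 in polarized cells (FDR 7.08e-11 and 3.25e-10). With RSM it was -1.24 ± 0.0890 in polarized cells (FDR 2.29e-09). For RSM in M[0] the difference was -0.98 ± 0.0939 (FDR 9.45e-08), just short of the fold required for a call. Without RSM M[0] replicate 1 it was -1.09, without Veh M[0] replicate 2 it was -1.02 and without all libraries numbered 1 it was -1.07, each of which met it. *Gm43621*, which lies on the opposite strand and shares 3.81% of the exonic bases of *Ptgs1*, had at most 63 counts summed over a group.

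**Figure D1:**
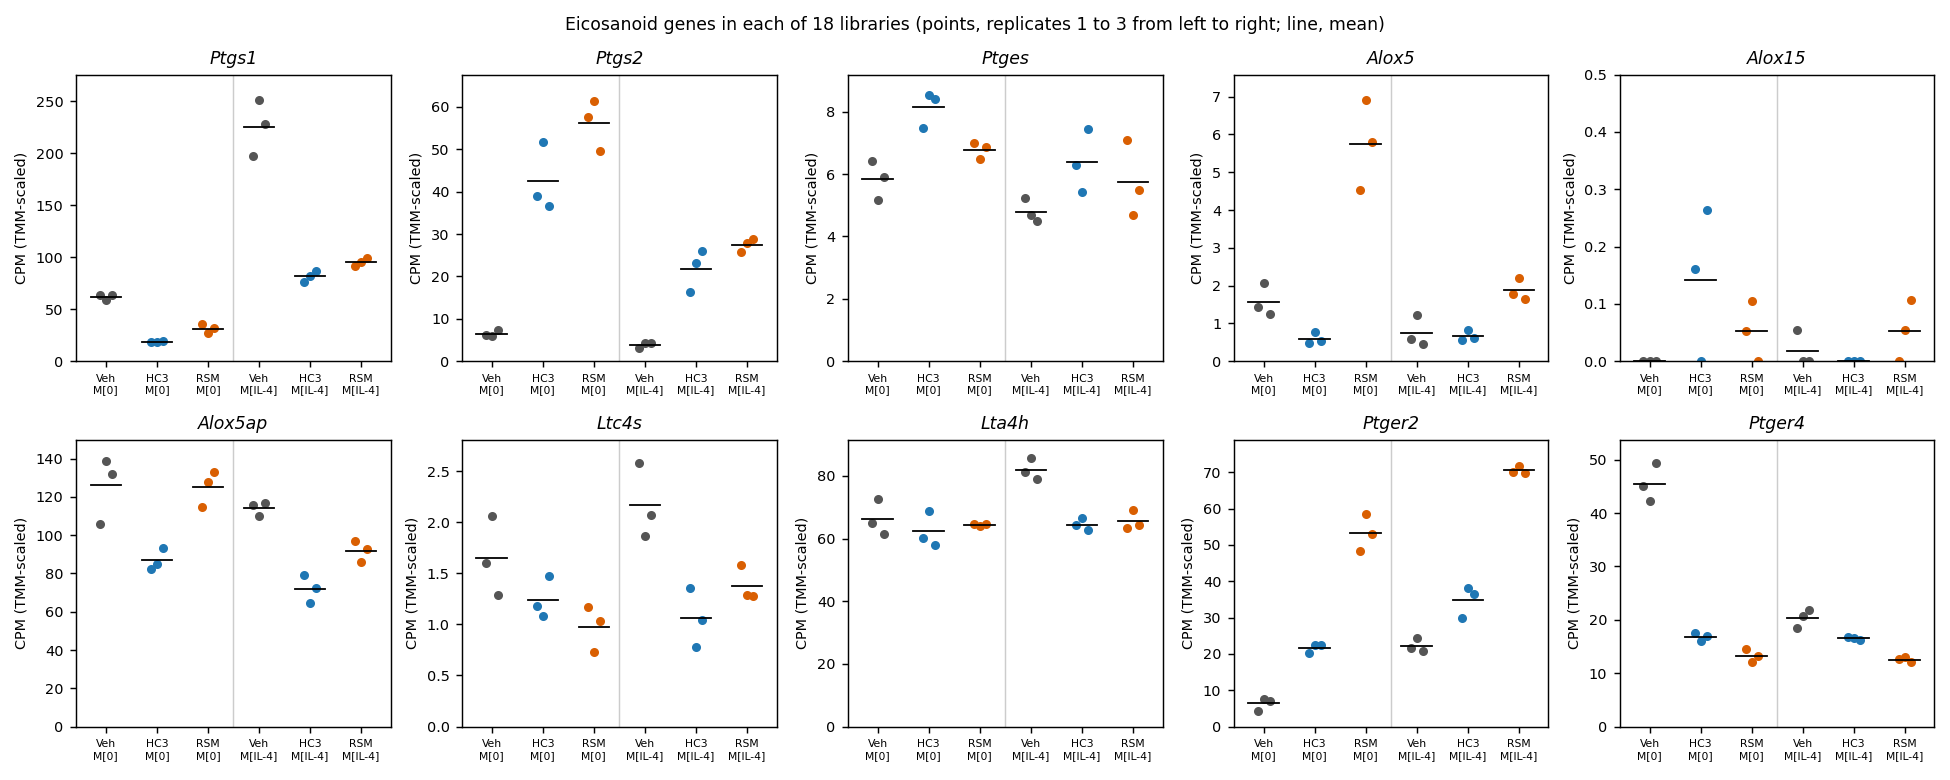
CPM (TMM-scaled, vertical axis from 0, scale set per gene) of the 10 eicosanoid genes in each library of the 6 groups; points are replicates 1 to 3 from left to right and the line is the group mean. *Ptgs2* and *Ptger2* stand higher with HC3 (blue) and RSM (orange) than with Veh (grey) in both polarizations, *Ptgs1* and *Ptger4* stand lower, and *Alox15* stays below 0.3 CPM.

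Per exonic length, the balance between the enzymes shifted in every inhibitor library. *Ptgs1* was at 16.0 CPM per kilobase in M[0] with Veh and *Ptgs2* at 1.42, whereas with HC3 they were at 4.84 and 9.28, and with RSM at 8.08 and 12.3. The share of *Ptgs2* in the sum of both was 8.15% ± 0.653 (SD, n = 3) with Veh, 65.4% ± 4.48 with HC3 and 60.3% ± 4.74 with RSM. In M[IL-4], where *Ptgs1* was higher, the share was 1.44% ± 0.116 with Veh, 18.3% ± 2.54 with HC3 and 19.6% ± 0.313 with RSM. *Ptgs2* was thus the more abundant transcript in all 6 inhibitor libraries of M[0], where its share ran from 57.1% to 70.4%, and the less abundant one in all libraries of M[IL-4] and of Veh.

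**Figure D2:**
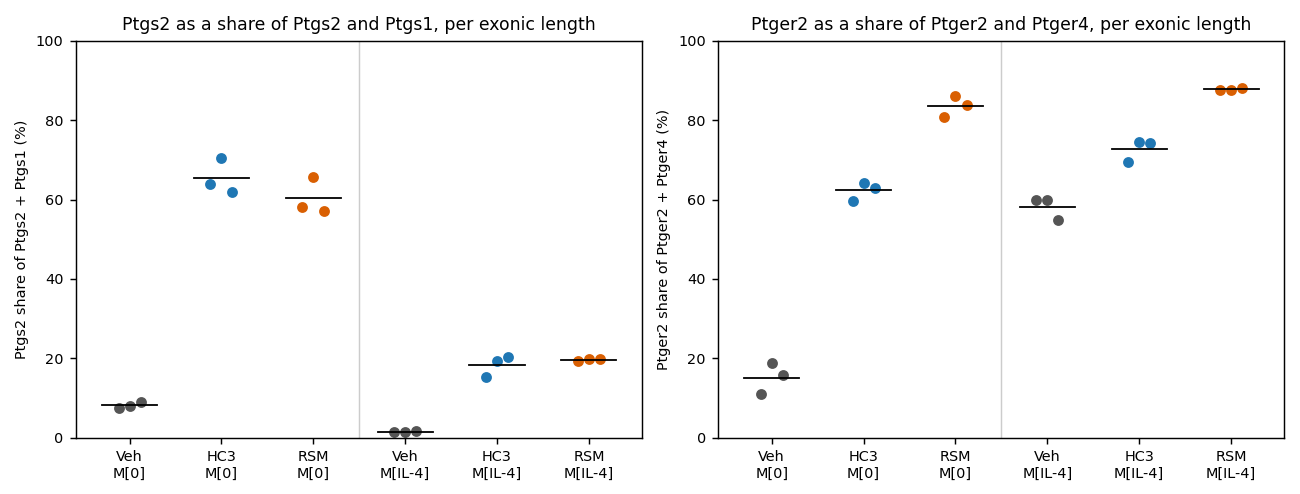
Share (%, axis 0 to 100) of *Ptgs2* in the sum of *Ptgs2* and *Ptgs1* (left) and of *Ptger2* in the sum of *Ptger2* and *Ptger4* (right), each as CPM per exonic length, in every library (points) with the group mean (line). The *Ptgs2* share lies above 57% in the M[0] inhibitor libraries and at or below 20.2% in all others, and the *Ptger2* share is lowest in M[0] with Veh, at 11.1% to 18.7%.

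*Ptges*, the microsomal synthase that acts after Ptgs2 to form prostaglandin E2, was called in no comparison. Its group means ran from 4.80 to 8.15 CPM. The largest difference was 0.48 ± 0.157 (SE) on the log2 scale for HC3 in M[0] (FDR 0.0183), and it was 0.41 for HC3 in M[IL-4] (FDR 0.0531, 95% interval 0.09 to 0.73). With RSM the differences were 0.22 and 0.26 (FDR 0.297 and 0.225), with intervals that reached no higher than 0.58.

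Among the tested lipoxygenase and leukotriene genes, only *Alox5* was called between HC3 and RSM. *Alox5*, the 5-lipoxygenase gene, was a low transcript, at 1.44, 2.06 and 1.24 CPM in M[0] with Veh, 0.482, 0.768 and 0.526 with HC3, and 4.53, 6.90 and 5.80 with RSM. In M[IL-4] it was at 0.592, 1.22 and 0.448 CPM with Veh, 0.566, 0.830 and 0.602 with HC3, and 1.78, 2.21 and 1.65 with RSM. The RSM libraries of M[0] stood above all others, and the 3 M[0] groups did not overlap, whereas RSM in M[IL-4] overlapped Veh in M[0]. *Alox5* fell with HC3 in M[0] (log2 fold change -1.39 ± 0.348, FDR 0.0031) and rose with RSM in M[0] (1.87 ± 0.283, FDR 2.9e-05) and in M[IL-4] (1.32 ± 0.332, FDR 0.0037). HC3 in M[IL-4] gave no detectable difference at this depth (95% interval -0.91 to 0.58). The RSM call in M[IL-4] was lost without the libraries numbered 1 (1.22, FDR 0.0565) or 3 (1.14, FDR 0.0754).

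*Alox15*, whose product is the 12/15-lipoxygenase, did not reach the count filter. Its counts in replicates 1 to 3 were 0, 0 and 0 in M[0] with Veh, 3, 0 and 5 with HC3, and 1, 2 and 0 with RSM. In M[IL-4] they were 1, 0 and 0 with Veh, 0, 0 and 0 with HC3, and 0, 1 and 2 with RSM. A count of 0 in a library allows up to 0.154 to 0.172 CPM, and these limits cover counting error only.

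*Alox5ap*, the 5-lipoxygenase-activating protein, was by length the most abundant of the 10 transcripts, at 88.6 ± 12.3 CPM per kilobase in M[0] with Veh, next to 0.384 ± 0.104 for *Alox5*. It ranged from 106 to 139 CPM with Veh and 82.3 to 93.2 with HC3 in M[0], which did not overlap, while RSM stood at 115 to 133. In M[IL-4] the ranges were 110 to 117 CPM with Veh, 64.8 to 79.3 with HC3 and 86.1 to 97.0 with RSM. HC3 differed from Veh by -0.53 in naïve and -0.66 in polarized cells on the log2 scale (FDR 0.00012 and 1.38e-05), and RSM by -0.31 in polarized cells (FDR 0.0114), all below the fold of a call. *Lta4h*, which makes leukotriene B4, kept between 58.1 and 85.8 CPM, with log2 differences of -0.35 for HC3 and -0.32 for RSM in M[IL-4] (FDR 0.000696 and 0.00142).

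*Ltc4s*, which makes leukotriene C4, was at 1.86 to 2.58 CPM in M[IL-4] with Veh and 0.775 to 1.36 with HC3, with no overlap, and was called lower there (log2 fold change -1.04 ± 0.275, FDR 0.0055). That call was lost with all libraries kept when counts were scaled by library size alone (-0.99, FDR 0.00856). It was also lost without Veh M[IL-4] replicate 1 (-0.88) or HC3 M[IL-4] replicate 2 (-0.86), and without the libraries numbered 2 (-0.96) or 3 (-1.06, FDR 0.0706). The other 3 inhibitor differences of *Ltc4s* lay between -0.75 and -0.40 and were not called. *Gm26542* and *Gm19719*, on the strand opposite *Ltc4s* and *Alox5ap*, share 26.4% and 13.3% of their exonic bases and had at most 12 and 25 counts summed over a group. Whether strand was used in counting is not given in the sources used here.

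The E prostanoid receptors also moved apart. *Ptger2* rose with HC3 in M[0], by 3.41-fold, and with RSM in both states, by 8.37-fold in M[0] and 3.17-fold in M[IL-4], while *Ptger4* fell in M[0] to 0.369 of the Veh level with HC3 and 0.292 with RSM.

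*Ptger2* was at 4.37, 7.58 and 7.15 CPM in M[0] with Veh, 20.3, 22.4 and 22.4 with HC3, and 48.3, 58.5 and 53.0 with RSM. In M[IL-4] it was at 21.5, 24.4 and 20.8 CPM with Veh, 29.8, 38.1 and 36.5 with HC3, and 70.0, 71.8 and 69.9 with RSM. RSM in M[IL-4] was the highest group and Veh in M[0] the lowest, with no overlap between neighbours except between Veh in M[IL-4] and HC3 in M[0]. The log2 fold changes in M[0] were 1.77 ± 0.147 (SE) for HC3 and 3.07 ± 0.144 for RSM (FDR 1.3e-08 and 7.23e-12). In M[IL-4] RSM gave 1.67 ± 0.127 (FDR 5.32e-09), and HC3 gave 0.65 ± 0.128 (FDR 0.000512), which is below the fold of a call. In replicates 1, 2 and 3 of M[IL-4] the stromal sum was 665, 285 and 649 CPM with Veh and 1077, 540 and 937 CPM with RSM. The part of stromal cells in the *Ptger2* levels was not tested. *Gm17173*, which with *Gm49364* covers 4.74% of the exonic bases of *Ptger2* on the opposite strand, had 2, 39 and 30 counts over the Veh, HC3 and RSM libraries of M[0] and 1, 23 and 32 over those of M[IL-4].

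*Ptger4* was at 45.0, 42.2 and 49.3 CPM in M[0] with Veh, 17.5, 16.0 and 16.9 with HC3, and 14.6, 12.1 and 13.2 with RSM. In M[IL-4] it was at 18.5, 20.8 and 21.8 CPM with Veh, 16.8, 16.6 and 16.3 with HC3, and 12.6, 13.0 and 12.1 with RSM. Veh in M[0] stood far above the other 5 groups, next came Veh in M[IL-4], then both HC3 groups, which overlapped, then both RSM groups, which also overlapped. In M[0] the log2 fold changes were -1.44 ± 0.0890 (SE) for HC3 and -1.77 ± 0.0906 for RSM (FDR 2.18e-10 and 1.92e-11). In M[IL-4] HC3 differed from Veh by -0.30 ± 0.0909 (FDR 0.013) and RSM by -0.70 ± 0.0923 (FDR 5.74e-06), and both fell short of a call. *Ttc33*, which with *Gm15937* overlaps 16.5% of the exonic bases of *Ptger4* from the opposite strand, differed by -0.19 to -0.09 in the same 4 comparisons.

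Per exonic length, *Ptger2* made up 15.1% ± 3.83 (SD, n = 3) of the sum of both receptors in M[0] with Veh, 62.3% ± 2.33 with HC3 and 83.6% ± 2.62 with RSM. In M[IL-4] the shares were 58.2% ± 2.88, 72.7% ± 2.89 and 87.8% ± 0.255. *Ptger2* was the less abundant receptor transcript in all 3 libraries of M[0] with Veh and the more abundant one in each of the other 15.

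**Figure D3:**
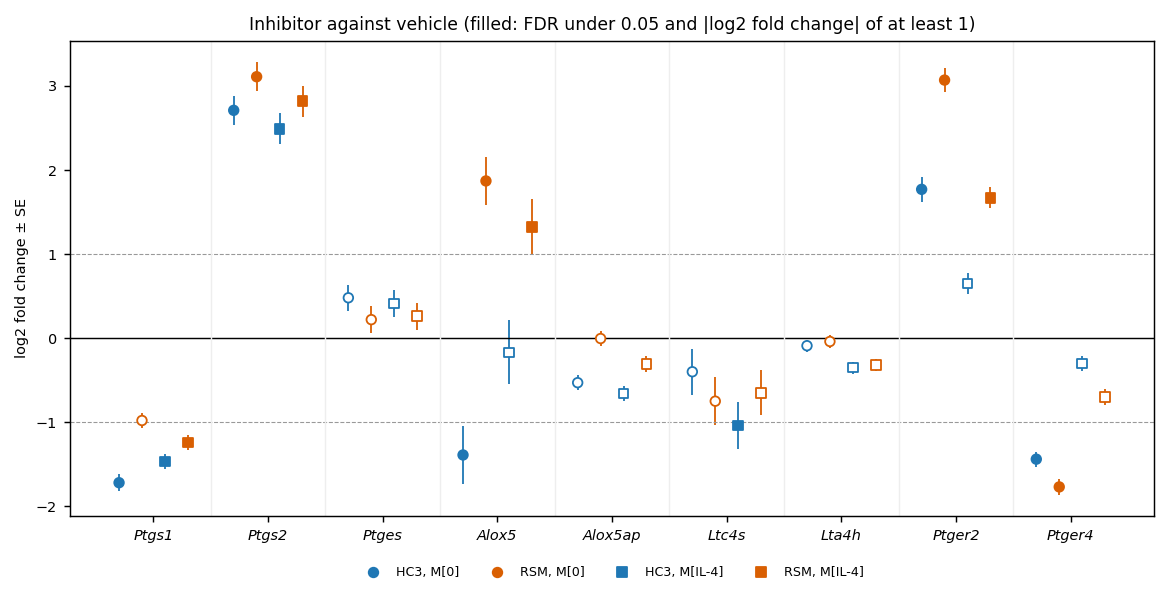
Log2 fold change (vertical axis, ± SE) of the 9 tested genes for HC3 (blue) and RSM (orange) against Veh in M[0] (circles) and M[IL-4] (squares); filled symbols are called, and dashed lines mark log2 fold changes of 1 and -1. All 4 values of *Ptgs2* lie between 2.49 and 3.11, the *Ptgs1* values lie between -1.72 and -0.98, and *Alox5* lies on opposite sides of 0 for HC3 and RSM in M[0].

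Over the 9 tested genes, HC3 in M[0] raised 2 (*Ptgs2*, *Ptger2*) and lowered 3 (*Ptgs1*, *Alox5*, *Ptger4*), where 5.93% of all genes tested were called higher and 6.11% lower. RSM in M[0] raised 3 (*Ptgs2*, *Alox5*, *Ptger2*) and lowered *Ptger4* alone, against 5.05% and 6.51% of all genes. In M[IL-4], HC3 raised *Ptgs2* and lowered 2 (*Ptgs1*, *Ltc4s*), with 4.72% and 5.53% of all genes called. RSM in M[IL-4] raised 3 (*Ptgs2*, *Alox5*, *Ptger2*) and lowered *Ptgs1*, with 5.05% and 6.00% of all genes called. The median log2 fold change over the 9 genes was -0.40, -0.0048, -0.30 and -0.31 in these comparisons, against 0.02, 0.0053, 0.0063 and 0.02 over all genes tested, so the genes did not move in 1 direction as a group.

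In Veh, IL-4 raised *Ptgs1* and *Ptger2* and lowered *Ptger4* and *Alox5*. M[IL-4] differed from M[0] by a log2 fold change of 1.86 ± 0.0913 (SE) for *Ptgs1* and 1.80 ± 0.147 for *Ptger2* (FDR 2.6e-11 and 2.23e-08), and by -1.16 ± 0.0881 for *Ptger4* (FDR 9.25e-09). The *Alox5* value was -1.06 ± 0.340 (FDR 0.023), but that call was lost in a fit of the compared groups alone (-1.06, FDR 0.0911). It was also lost when Veh M[0] replicate 2, Veh M[IL-4] replicate 1 or Veh M[IL-4] replicate 3 was left out (*Alox5* at -0.83, -0.93 and -0.80), and without the libraries numbered 1 (FDR 0.134) or 3 (FDR 0.171). *Ptgs2* differed by -0.74 ± 0.204 (FDR 0.00887) without reaching the fold of a call. These were 2 genes called higher and 2 called lower of 9, where 2.83% and 3.83% of all genes tested were called.

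With HC3 present, IL-4 raised *Ptgs1* (log2 fold change 2.12 ± 0.0977, FDR 2.06e-11) and changed no other of the 9 genes by the rule for a call, where 1.82% of all genes were called higher and 2.14% lower. With RSM, IL-4 raised *Ptgs1* (1.60 ± 0.0936, FDR 3.33e-10) and lowered *Alox5* (-1.61 ± 0.276, FDR 0.000313) and *Ptgs2* (-1.03 ± 0.150, FDR 5.3e-05), where 2.45% and 1.81% of all genes were called. The *Ptgs2* value under RSM fell short of the fold without RSM M[0] replicate 2 (-0.96) or RSM M[IL-4] replicate 1 (-0.99). Under HC3 the *Ptgs2* difference was -0.96 ± 0.153 (FDR 0.000184), and it passed the fold when HC3 M[0] replicate 1 or 3, or HC3 M[IL-4] replicate 2 or 3, was left out (-1.01 to -1.11).

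The IL-4 response of both receptors depended on the inhibitor. *Ptger2* was 1.80 higher with IL-4 on the log2 scale in Veh, 0.68 higher with HC3 and 0.41 higher with RSM. The interaction, which tests whether the IL-4 response differs between inhibitor and Veh, was -1.12 ± 0.195 for HC3 (FDR 0.00162) and -1.40 ± 0.191 for RSM (FDR 9.25e-05). *Ptger4* differed by -1.16 with IL-4 in Veh, by -0.02 with HC3 (95% interval -0.20 to 0.16) and by -0.08 with RSM (-0.27 to 0.10), and its interactions were 1.14 ± 0.127 and 1.07 ± 0.129 (FDR 2.9e-05 and 2.76e-05). The *Ptger2* interaction with HC3 was -0.91 without Veh M[0] replicate 1, the library with the lowest *Ptger2* level, and its call was also lost without the libraries numbered 1 (-0.86) or 3 (-1.27, FDR 0.0822). Each interaction thus called 1 gene higher and 1 lower of 9, where 1.24% of all genes were called in either direction for HC3 and 2.14% for RSM. *Ptgs1* and *Ptgs2* were called in neither. The *Ptgs1* interaction was 0.26 with HC3 (95% interval -0.00015 to 0.51, FDR 0.296) and -0.26 with RSM (-0.51 to -0.0084, FDR 0.254). That of *Ptgs2* was -0.22 with HC3 (-0.72 to 0.28) and -0.29 with RSM (-0.79 to 0.21). Without the libraries numbered 2, the *Ptgs2* interaction with HC3 changed from -0.22 to 0.05.

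**Figure D4:**
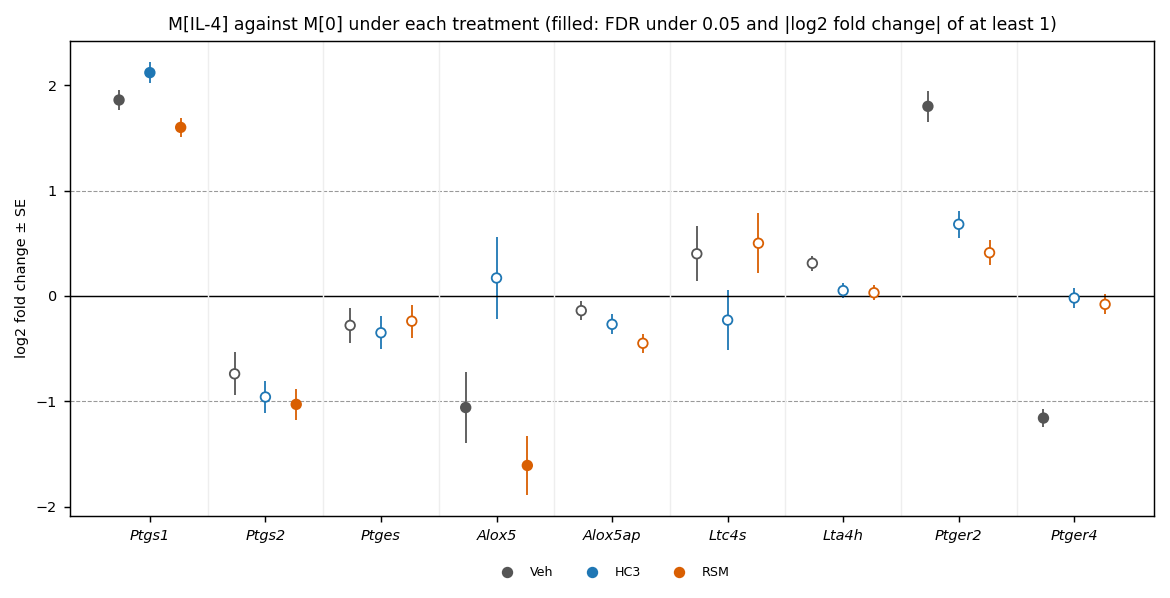
Log2 fold change (vertical axis, ± SE) of M[IL-4] against M[0] for the 9 tested genes with Veh (grey), HC3 (blue) and RSM (orange); filled symbols are called and dashed lines mark 1 and -1. *Ptgs1* lies between 1.60 and 2.12 under all 3 treatments, while *Ptger2* lies at 0.68 and 0.41 with HC3 and RSM against 1.80 in Veh, and *Ptger4* at -0.02 and -0.08 against -1.16.

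HC3 and RSM, which act at successive steps of choline use, were given at different single doses, so the values compare these treatments and not the strength of the compounds. Of 9 genes, 2 were called between them in M[0], with *Alox5* lower with HC3 than with RSM (log2 fold change -3.26 ± 0.319, FDR 8.67e-07) and *Ptger2* likewise (-1.30 ± 0.127, FDR 8.89e-07), where 3.04% of all genes were called in either direction. The same 2 were called in M[IL-4] (*Alox5* -1.49 ± 0.337, FDR 0.00544; *Ptger2* -1.02 ± 0.124, FDR 1.22e-05), where 2.80% of all genes were called. The *Ptger2* value in M[IL-4] was -0.92 without HC3 M[IL-4] replicate 1, and both calls in M[IL-4] were lost without the libraries numbered 1 (*Alox5* -1.42, FDR 0.0797; *Ptger2* -0.93). The *Alox5* call was lost without the libraries numbered 3 as well (-1.50, FDR 0.0954). *Ptgs1* was lower with HC3 than with RSM in M[0] by -0.74 ± 0.0991 (FDR 3.99e-05), short of the fold. For *Ptgs2* the difference was -0.40 in M[0] (FDR 0.0806, 95% interval -0.69 to -0.11) and -0.33 in M[IL-4] (FDR 0.19, -0.63 to -0.03).

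Of 62 other genes of the pathway, 48 were tested. HC3 raised 6 and lowered 10 of them in M[0], where 5.93% of all genes tested were called higher and 6.11% lower. In M[IL-4] HC3 raised 3 and lowered 8, against 4.72% and 5.53% of all genes. RSM raised 5 and lowered 7 in M[0], against 5.05% and 6.51%, and raised 4 and lowered 7 in M[IL-4], against 5.05% and 6.00%. IL-4 in Veh raised 8 and lowered 4, against 2.83% and 3.83%. Their median log2 fold change lay between -0.24 and 0.05 in these 5 comparisons.

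Among 18 genes that free or recapture arachidonic acid, 15 were tested. *Pla2g4a*, the cytosolic phospholipase A2 that releases arachidonic acid, rose from 19.5 ± 0.901 CPM (SD, n = 3) in M[0] with Veh to 55.6 ± 5.56 with HC3 and 61.4 ± 3.86 with RSM (log2 fold changes 1.51 and 1.65, FDR 1.39e-11 and 6e-12), and IL-4 raised it in Veh to 45.1 ± 0.885. *Pla2g7*, which hydrolyses platelet-activating factor, rose with RSM only by the rule for a call, from 54.9 ± 16.3 to 343 ± 54.3 CPM in M[0], and HC3 and RSM differed by -1.80 there (FDR 2.07e-05). *Pla2g15*, the lysosomal phospholipase A2, fell with both inhibitors in M[0] (log2 fold changes -1.10 and -1.56). *Daglb*, a diacylglycerol lipase, fell in all 4 inhibitor comparisons, from 447 ± 19.0 CPM in M[IL-4] with Veh to 142 ± 10.1 with HC3 and 97.9 ± 2.85 with RSM. *Mgll*, the monoacylglycerol lipase, moved in opposite directions in M[0], with a log2 fold change of 1.17 for HC3 and -1.22 for RSM. *Pla2g5* rose with IL-4 in Veh (3.04), *Lpcat2* fell with HC3 in M[0] (-1.70) and with IL-4 in Veh (-1.19), and *Pla2g2e* rose with HC3 in M[0] (1.70) and M[IL-4] (1.26).

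Among 10 further prostanoid synthase genes, 8 were tested. Of these, 1 was called lower with HC3 in M[0] and 1 with RSM in M[IL-4], against 6.11% and 6.00% of all genes. IL-4 in Veh raised 1, against 2.83%, and the 5 comparisons held no further call. *Hpgds*, the hematopoietic prostaglandin D synthase, fell with HC3 in M[0] from 362 ± 22.5 to 170 ± 12.7 CPM (log2 fold change -1.09, FDR 3.14e-08). With RSM in M[0] it stood at 203 ± 14.3 CPM, which was not called. *Tbxas1*, the thromboxane synthase, rose with IL-4 in Veh from 158 ± 11.9 to 381 ± 12.0 CPM. In M[IL-4] it fell with RSM to 166 ± 9.07 CPM and stood at 194 ± 9.54 with HC3, which was not called. *Ptges2* and *Ptges3* were not called. *Ptgis*, the prostacyclin synthase, and *Ptgds* did not reach the count filter. Of 9 lipoxygenase and leukotriene-processing genes, 4 were tested and *Ggt5*, which acts on leukotriene C4, fell in all 4 inhibitor comparisons from means of 1.28 and 2.13 CPM with Veh (log2 fold changes -1.23 to -1.85), although its call with HC3 in M[0] was lost under 10 alternatives.

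Of 11 genes for inactivation and transport, all were tested. *Hpgd*, whose product starts the breakdown of prostaglandins, fell from 51.6 ± 3.77 CPM in M[0] with Veh to 4.34 ± 0.594 with HC3 and 3.66 ± 0.181 with RSM, and from 15.2 ± 1.43 CPM in M[IL-4] to 3.15 ± 0.233 and 2.27 ± 0.513. The log2 fold changes were -3.57, -3.81, -2.27 and -2.75 (FDR 2.08e-13, 2.11e-13, 3.6e-10 and 4.14e-11), and IL-4 lowered it in Veh by -1.76. *Cyp4f18*, which inactivates leukotriene B4, also fell in all 4 inhibitor comparisons (-2.06 to -3.19) and rose with IL-4 in Veh (1.46). *Ephx1*, an epoxide hydrolase, fell with both inhibitors in M[IL-4] (-1.22 and -1.43). *Ptgr1*, a reductase of prostaglandins and leukotriene B4, rose with both in M[0] (1.29 and 1.33).

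Of 14 other receptors, 10 were tested. *Ptgir*, the prostacyclin receptor, had the largest rise of the wider list with HC3 in M[0], from 5.09, 6.99 and 5.05 CPM with Veh to 98.5, 108 and 100 with HC3, and was at 63.3, 75.3 and 76.5 with RSM. In M[IL-4] it went from 20.7, 24.7 and 21.9 CPM with Veh to 147, 163 and 166 with HC3 and 124, 143 and 135 with RSM. The inhibitor and Veh libraries did not overlap (log2 fold changes 4.16, 3.65, 2.83 and 2.58, FDR 9.62e-15, 5.05e-14, 2.02e-13 and 1.04e-12). The stromal sums of M[IL-4] were 665, 285 and 649 CPM with Veh, 973, 563 and 1061 with HC3, and 1077, 540 and 937 with RSM. The part of stromal cells in the *Ptgir* levels was not tested. *Ptger3*, the EP3 receptor, rose in all 4 comparisons as well, from 1.03 ± 0.276 CPM in M[0] with Veh to 7.48 ± 2.03 with HC3 and 11.7 ± 2.60 with RSM (2.86 and 3.50) and by 2.07 and 1.48 in M[IL-4]. *Ptger1*, the EP1 receptor, fell with RSM in both states (-1.46 and -1.41).

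Of the leukotriene receptors, *Cysltr1* fell with HC3 and not with RSM by the rule for a call: it was at 35.6 ± 2.60 CPM in M[0] with Veh, 11 ± 0.791 with HC3 and 33.1 ± 1.76 with RSM, and HC3 and RSM differed by -1.59 in M[0] and -1.33 in M[IL-4] (FDR 1.49e-07 and 1.39e-06). *Cmklr1*, a receptor for chemerin, had the same order, with HC3 below RSM by -1.64 in naïve and -1.77 in polarized cells (FDR 0.000154 and 6.84e-05). *Ltb4r1*, the leukotriene B4 receptor, had at most 0.175 CPM as a mean in any M[0] group and rose with IL-4 in Veh to 2.90 ± 0.605 CPM. In M[IL-4] it stood lower with the inhibitors, at 1.14 ± 0.431 CPM with HC3 and 1.56 ± 0.123 with RSM. *Cysltr2* was raised by RSM in polarized cells (1.31, FDR 0.00703) and by IL-4 in Veh (1.18, FDR 0.0391), and the call for IL-4 was lost under 7 alternatives.

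**Figure D5:**
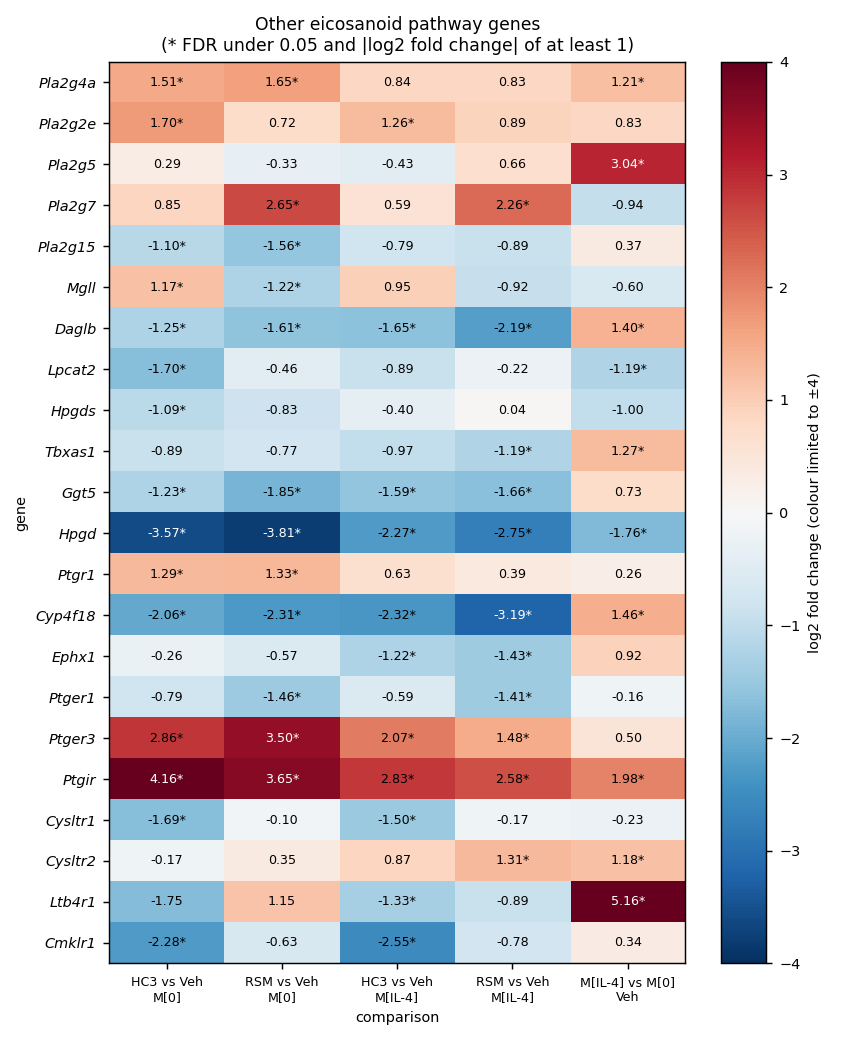
Log2 fold changes (colour and printed value) of the 22 other pathway genes called in at least 1 of 5 comparisons with a mean of at least 1 CPM in the higher group; rows are genes, columns are comparisons and an asterisk marks a call. *Ptgir* and *Ptger3* are raised and *Hpgd*, *Daglb*, *Cyp4f18* and *Ggt5* lowered in all 4 inhibitor columns.

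Both EP2 and EP4, like the prostacyclin receptor, signal through cyclic AMP, and 14 genes known to respond to it were listed, of which 13 were tested. HC3 raised 4 and lowered 3 in M[0], where 5.93% of all genes tested were called higher and 6.11% lower, and raised 2 and lowered 2 in M[IL-4], against 4.72% and 5.53%. RSM raised 2 and lowered 3 in M[0], against 5.05% and 6.51%, and raised 2 and lowered 2 in M[IL-4], against 5.05% and 6.00%. The list medians were 0.02, 0.06, -0.07 and 0.41 in that order. *Thbs1*, thrombospondin 1, and *Pde4d*, a phosphodiesterase that degrades cyclic AMP, rose in all 4 comparisons, the first from 735 ± 104 CPM in M[0] with Veh to 1993 ± 183 with HC3 and 3328 ± 216 with RSM. *Il10*, an anti-inflammatory cytokine, and *Rgs2*, a regulator of G protein signalling, fell in all 4, with *Il10* at 4.43 ± 0.343 CPM in M[0] with Veh and 0.649 ± 0.173 and 0.609 ± 0.0687 with HC3 and RSM. *Fosb* rose (1.31) and *Pde4b* fell (-1.42) with HC3 in M[0], *Nr4a1* fell with RSM in M[0] (-1.08) and with IL-4 in Veh (-2.44), and *Fos* fell with IL-4 in Veh (-1.16). *Thbs1* is also a product of stromal cells, whose marker sums moved as given above.

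Markers of blood cells that carry much *Alox5*, *Ltc4s* or *Alox15* elsewhere were scarce, apart from a pair of eosinophil markers. Summed over 8 mast cell and basophil markers the level was 0.426 to 3.16 CPM over the 18 libraries, with *Fcer1a*, *Cma1* and *Tpsb2* at 0 in all, and over 9 neutrophil markers it was 0.306 to 1.99 CPM, with *S100a9*, *Elane* and *Retnlg* at 0 in all. The 5 eosinophil markers summed to 2.41 to 61.5 CPM, carried by *Ccr3* (2.25 to 56.8 CPM) and *Siglecf* (0.103 to 26.7 CPM), while *Prg2* and *Il5ra* never exceeded 0.108 CPM and *Epx* was at 0 in all. Their summed level was lower with the inhibitors, with a median of 51.7 CPM in M[0] with Veh, 6.84 with HC3 and 4.11 with RSM, and of 52.9, 11.7 and 6.81 CPM in M[IL-4]. The part of cells that carry them in the genes that fell, *Alox5* and *Ltc4s* with HC3 among them, was not tested. The 6 platelet and megakaryocyte markers summed to 0.464 to 4.62 CPM and were highest in M[0] with RSM, where *Ppbp* had a mean of 4.15 CPM. The part of *Ppbp*-bearing cells in the *Alox5* level of those libraries was not tested. The 5 dendritic cell and 8 lymphocyte markers summed to at most 2.90 and 1.54 CPM.

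For each gene called in at least 2 inhibitor comparisons, the gene outside the 10 with the most similar profile was sought by Pearson's r of log2 CPM over the 18 libraries, which share the 6 treatments. *Ptgs1* was nearest to *Sh3kbp1* (r = 0.985), *Ptgs2* to *Acsl4* (0.987), *Alox5* to *Gcnt1* (0.944), *Ptger2* to *Tanc2* (0.965) and *Ptger4* to *Stx16* (0.965). *Acsl4* is also among the 62 pathway genes and was at 132 ± 2.81 CPM in M[0] with Veh, 205 ± 8.54 with HC3 and 234 ± 11 with RSM, without reaching the fold of a call.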

How the data were processed

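The authors sequenced poly-T-selected mRNA from 18 BMDM libraries, trimmed read pairs with fastp, aligned them to GRCm38 with STAR, kept pairs of high mapping quality, marked duplicates with Picard without removing them, and summed exonic pairs per gene with featureCounts. The deposited values are raw counts per Ensembl gene (55385 genes, no column left unused), so depth differs between libraries (17457796 to 19522255) and intervals on low counts cover counting error only. Tool versions and the strand setting are not given in the sources used here. Groups and replicate numbers came from the sample labels. Symbols, positions and exonic lengths came from GENCODE for GRCm38 and matched 55144 genes, and start regions came from RefSeq (GRCm38.p6).

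The 14979 genes that reached 10 counts in 2 or more libraries were tested with edgeR 4.0.16 in R 4.3.3 (TMM, glmQLFit, glmQLFTest). All 18 libraries entered 1 model, in which each group had its own coefficient and no block was used. FDR values are Benjamini-Hochberg adjusted p-values over those genes, and 95% intervals of log2 fold changes are normal intervals from the SE. Alternatives were a replicate block, a block within polarization, a fit of the compared groups only, DESeq2 1.42.0, no count filter, filterByExpr, library-size scaling, and leaving out each replicate number and each library. Residuals of same-numbered libraries of 1 polarization correlated at r = 0.11 to 0.372 in 18 of 18 pairs, above 0.1 in each, and across polarizations at above 0.1 in 12 of 27 pairs, while the labels do not say what a number shares.

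Named genes are the 10 members, those of the other pathway and cyclic AMP lists called in at least 1 inhibitor comparison or with IL-4 in Veh at a mean of at least 1 CPM in the higher group, the nearest gene of each member called in at least 2 inhibitor comparisons, and marker genes. *Retnla* was kept for the label check, and genes that overlap a member, *Ptges2*, *Ptges3*, *Ptgis*, *Ptgds* and single markers were picked for mention after their values were seen. The members and lists were chosen with earlier results of these data known. Replicates of 1 group differed by more than sampling noise (chi-square per gene 6.3 to 20.3).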

Additional observations from a re-analysis of the deposited data

Results flagged for a closer look

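The IL-4 response of both E prostanoid receptors differed between Veh and the inhibitors by the interaction test of edgeR. For *Ptger2* the interaction was -1.12 on the log2 scale with HC3 and -1.40 with RSM, with M[IL-4] above M[0] in all 3 treatments. For *Ptger4* it was 1.14 with HC3 and 1.07 with RSM. In Veh, whose libraries enter every interaction, *Ptger2* was at 4.37 to 7.58 CPM in M[0] and 20.8 to 24.4 in M[IL-4]. *Ptger4* was at 42.2 to 49.3 CPM in M[0] and 18.5 to 21.8 in M[IL-4]. Groups of 3 libraries are too small for the test of single libraries that stand apart, so none was singled out.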

How the results depend on the processing

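The counts here cover 84 log2 fold changes, and leave aside 15 others that were small and not significant, 12 of which changed sign under some alternative. Of 32 called values, 25 were called under every alternative and 7 were lost under at least 1, and 3 uncalled values were called under at least 1. The replicate block changed none of the 168 calls compared, with *Ptgs2* at 2.70 for HC3 in M[0]. Counts of called genes differed by over 1.5 times in 3 comparisons: IL-4 with HC3 (1, with 2 under library-size scaling and 1 to 2 with libraries left out), the interaction of HC3 with IL-4 (2, with 1 to 3) and HC3 against RSM in M[IL-4] (2, with 0 to 2). The *Ptgs2* interaction with HC3 turned from -0.22 to 0.05 without the libraries numbered 2 (lowest -0.48). The near-zero IL-4 difference of *Ptger4* with HC3 turned from -0.02 to 0.0038 with no count filter, 0.0031 without the libraries numbered 1 and 0.01 without HC3 M[0] replicate 1, with a lowest value of -0.05 where libraries were left out and -0.07 under library-size scaling. The cause was not tested. Library-size scaling moved the median of all genes by at most 0.061. Depth limits *Alox15*, *Alox5* and *Ltc4s*, which had few counts.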
